A study of Mus musculus with 2 samples.

Results

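The direct and indirect pathway genes of the striatum were followed in total RNA of the left cerebral cortex. The set holds 10 genes of the 55536 in the gene tables: Drd1 and Tac1 for the direct pathway, Drd2, Adora2a and Penk for the indirect pathway, and Ppp1r1b, Rgs9, Lrrc10b, Syndig1l and Rasd2 as further striatal genes. They were taken by symbol and chosen by their expected counts, which had been seen to be lower in replicate 2 than in replicate 1. Their ratio between the animals is therefore a description, with no test, and supports nothing. The tissue came from male mice of the strain B6CASTF1/J, the hybrid of C57BL/6J and CAST/EiJ, aged 2 months, with 1 library from each of 2 animals. The labels name no treatment, engineered allele or pooling, and they put both libraries in 1 group, so no conditions were compared. Each library was made from 300 ng of RNA with ERCC synthetic spike-in RNAs. The animals were given different numbers in the labels but share a donor record, so whether they were littermates is not known.

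The striatum lies beneath the cortex, and nearly all of its neurons are GABAergic spiny projection neurons. Those of the direct pathway carry the dopamine D1 receptor, which raises cAMP, and make substance P. Those of the indirect pathway carry the dopamine D2 receptor, which lowers cAMP, together with the adenosine A2a receptor, which raises it, and make enkephalin. Both kinds hold high levels of the cAMP-regulated phosphatase inhibitor DARPP-32, made from Ppp1r1b. Cortical neurons express several of these genes at lower levels, so in cortical tissue none of them marks the striatum alone. In bulk tissue, fewer cells of a type and less RNA per cell cannot be told apart.

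The gene tables summed to 32142918 expected counts in replicate 2 and 33007629 in replicate 1. Expected counts are model estimates of reads per gene and can be fractional. Levels are deposited TPM (transcript abundance per length, scaled to the same total in each library), and means are given ± SD over the 2 animals. A second deposited table per library, made directly from the reads and called the other quantification here, gave a check on each value. Cortical markers were high. The glutamate transporter gene Slc17a7 was at 586 TPM in replicate 2 and 588 TPM in replicate 1, and 7 cortical excitatory neuron genes summed to 837 and 839 TPM. All 10 striatal genes were detected in both libraries, from 80 to 2194 counts in replicate 2 and from 344 to 3601 counts in replicate 1. Their deposited posterior SD was 0 in both libraries, so the authors' model left no doubt in dividing reads between these and other genes.

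Of the direct pathway genes, Drd1 encodes the D1 receptor and lies at chr13:54051183-54055705 on the minus strand (ENSMUSG00000021478.6, build mm10). It had 465 counts in replicate 2 and 790 counts in replicate 1. Its level was 13.2 TPM in replicate 2 and 17.4 TPM in replicate 1 (mean 15.3 ± 2.91, n = 2). Tac1 encodes the precursor of substance P and neurokinin A and lies at chr6:7554879-7565834 on the plus strand (ENSMUSG00000061762.12). Its values were 157 counts and 8.69 TPM in replicate 2, against 418 counts and 23.4 TPM in replicate 1 (16.1 ± 10.4 TPM, n = 2). In the gene tables the direct pathway genes were thus close in mean level, but Drd1 was the higher in replicate 2 and Tac1 in replicate 1. The other quantification did not show this: Tac1 was the higher in both animals. There Tac1 was at 17.2 TPM and Drd1 at 13.7 TPM in replicate 2, against 43.4 and 14.6 TPM in replicate 1.

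A pair of short coding exons decides which Tac1 peptides a transcript encodes, and both are shown because the forms of this gene are compared further on. The 45-base exon 4 of Tac1-205 lies at chr6:7557216-7557260. The 54-base exon 6, at chr6:7559099-7559152, holds the neurokinin A codons. Of the 3 complete coding forms, all encode substance P and 2 encode neurokinin A, as read from the GENCODE M21 transcript sequences.
Tac1 exon 4: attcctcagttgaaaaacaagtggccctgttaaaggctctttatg
Tac1 exon 6: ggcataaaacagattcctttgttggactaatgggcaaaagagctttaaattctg

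Of the indirect pathway genes, Penk, the proenkephalin gene, stood far above the receptors. It lies at chr4:4133531-4138819 on the minus strand (ENSMUSG00000045573.9). It had 1123 counts and 43.9 TPM in replicate 2, against 2128 counts and 80.2 TPM in replicate 1 (62.0 ± 25.7 TPM, n = 2). Its coding sequence in Penk-201 repeats the codons of Met-enkephalin 6 times and those of Leu-enkephalin 1 time. The first copies, at chr4:4134307-4134354, show how the peptides are laid out, each between pairs of basic residues where the precursor is cut, with the enkephalin codons in capitals.
Penk, first Met-enkephalin copies: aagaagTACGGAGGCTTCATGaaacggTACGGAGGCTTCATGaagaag

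Adora2a, the adenosine A2a receptor gene, lies at chr10:75316877-75334784 on the plus strand (ENSMUSG00000020178.6). It had 115 counts and 3.01 TPM in replicate 2, against 415 counts and 9.13 TPM in replicate 1 (6.07 ± 4.33 TPM, n = 2). Drd2, the D2 receptor gene, lies at chr9:49340627-49408177 on the plus strand (ENSMUSG00000032259.8) and was the lowest of the 10 in both animals. It had 80 counts and 1.53 TPM in replicate 2, against 344 counts and 6.45 TPM in replicate 1 (3.99 ± 3.48 TPM, n = 2). The annotation used here has a single Drd2 form, Drd2-201, which encodes 444 amino acids and includes the 87-base exon 6 at chr9:49403194-49403280. That exon sets the long D2 receptor apart from the short one, and since no short form is annotated, the tables cannot divide the counts between them.
Drd2 exon 6: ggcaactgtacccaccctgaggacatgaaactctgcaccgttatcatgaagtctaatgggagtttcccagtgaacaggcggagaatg

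The other 5 genes are known for higher levels in striatum than in cortex. Ppp1r1b, the DARPP-32 gene at chr11:98348404-98357796 on the plus strand (ENSMUSG00000061718.12), was the highest of the 10. Its values were 2194 counts and 64.6 TPM in replicate 2, against 3601 counts and 106.5 TPM in replicate 1 (85.5 ± 29.6 TPM, n = 2). Rasd2, which encodes the small GTPase Rhes, lies at chr8:75213944-75224113 on the plus strand (ENSMUSG00000034472.13). It had 1951 counts and 34.3 TPM in replicate 2, against 2615 counts and 44.9 TPM in replicate 1 (39.6 ± 7.49 TPM, n = 2). Rasd2 varied least between the animals among the 10 genes on the count scale.

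Rgs9 encodes a regulator that speeds the turning-off of G proteins and lies at chr11:109225355-109298129 on the minus strand (ENSMUSG00000020599.13). It had 454 counts and 8.98 TPM in replicate 2, against 1023 counts and 20.8 TPM in replicate 1 (14.9 ± 8.33 TPM, n = 2). Syndig1l, at chr12:84677277-84698831 on the minus strand (ENSMUSG00000071234.3), encodes a membrane protein related to the synapse protein SynDIG1. Its values were 254 counts and 5.15 TPM in replicate 2, against 541 counts and 11.7 TPM in replicate 1 (8.45 ± 4.66 TPM, n = 2). Lrrc10b, at chr19:10455371-10457473 on the minus strand (ENSMUSG00000090291.3), encodes a protein with leucine-rich repeats. It had 130 counts and 3.04 TPM in replicate 2, against 382 counts and 8.76 TPM in replicate 1 (5.90 ± 4.04 TPM, n = 2). All 3 were lower in replicate 2 than in replicate 1.

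**Figure D1:**
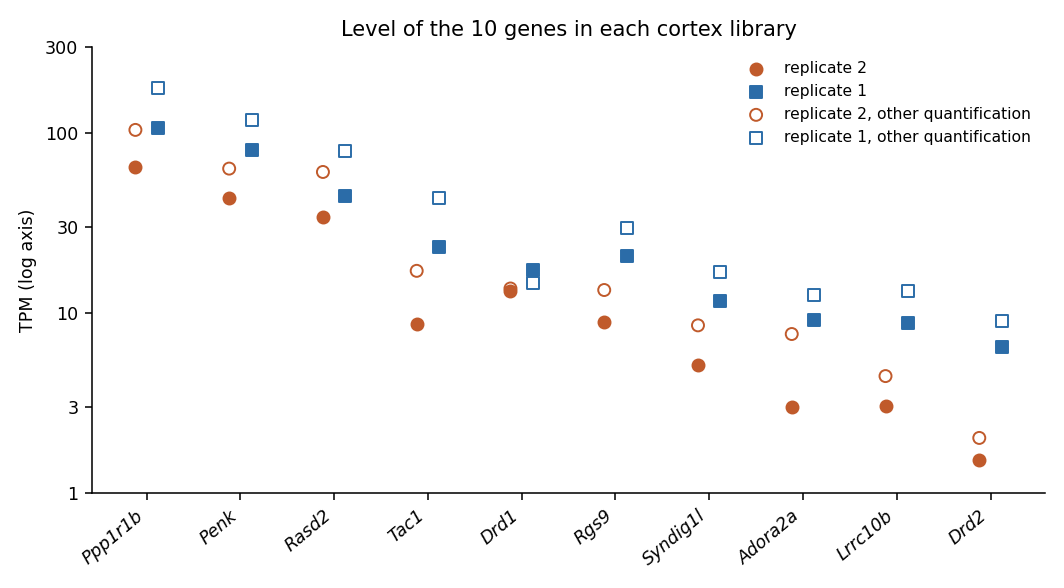
TPM of the 10 genes on a log axis, ordered by mean level, with replicate 2 (circles) left of replicate 1 (squares) and the other quantification as open symbols. Ppp1r1b, Penk and Rasd2 lead in both animals, Drd2 is lowest, and each gene is lower in replicate 2 within each quantification.

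By mean TPM the order of levels was Ppp1r1b, Penk, Rasd2, Tac1, Drd1, Rgs9, Syndig1l, Adora2a, Lrrc10b and Drd2, as the plot of levels shows. Only the step between Rasd2 and Tac1 exceeded the spread: the ranges of every other pair of neighbours overlapped. The order of Tac1 and Drd1, of Drd1 and Rgs9, and of Adora2a and Lrrc10b differed between the animals. In the other quantification, however, Tac1 was above Drd1 in both animals. Ppp1r1b, Penk and Rasd2 together held 76.6% of the summed TPM of the 10 genes in replicate 2 and 70.3% in replicate 1. The whole sum was 186 TPM in replicate 2 and 329 TPM in replicate 1. Among protein-coding genes, Ppp1r1b stood at percentile 92.5 in replicate 2 and 96.0 in replicate 1, and Drd2 at percentile 42.9 and 55.8. In the other quantification the levels were higher for most of the genes (Ppp1r1b 104 TPM in replicate 2 and 179 TPM in replicate 1), with the same top 3 and Drd2 again last.

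The animals were compared by the log2 ratio of replicate 2 over replicate 1, from TMM-normalised counts (CPM, scaled to the same library total), with an exact 95% interval that covers counting error only. With 1 library on each side the ratios have no replicate check, so no p-values were computed. Drd2 had the lowest ratio, at -2.05 (-2.45 to -1.72), which is 4.14-fold lower in replicate 2. Adora2a followed at -1.81 (-2.13 to -1.52), or 3.50-fold lower, so both indirect pathway receptors led the list. The ratio was -1.51 for Lrrc10b, -1.37 for Tac1, -1.14 for Rgs9 and -1.06 for Syndig1l. Penk was at -0.89 (-1.0001 to -0.79), just short of a 2-fold difference, and Drd1 at -0.73 (-0.91 to -0.57). Ppp1r1b at -0.69 (-0.76 to -0.61) and Rasd2 at -0.39 (-0.48 to -0.31), both abundant, differed least of the 10.

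**Figure D2:**
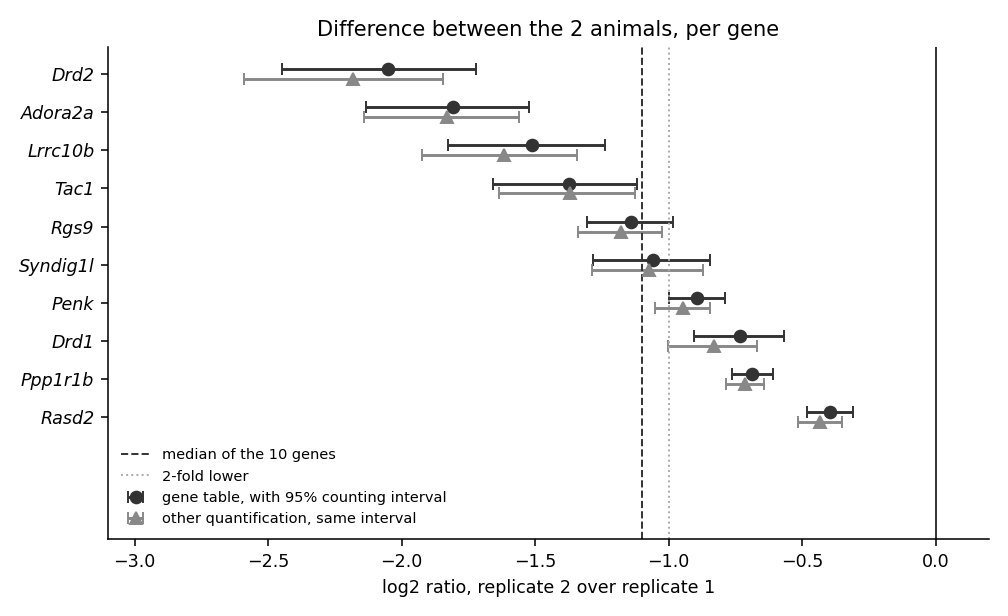
Log2 ratio of replicate 2 over replicate 1 for each gene, with 95% counting intervals, in the gene tables (circles) and the other quantification (triangles). With TMM scaling all intervals lie below 0, from Drd2 at -2.05 to Rasd2 at -0.39, and the quantifications differ little.

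With TMM scaling, all 10 genes were lower in replicate 2 by more than counting error, and 6 of the 10 were at least 2-fold lower. The other quantification gave the same counts of genes, 10 and 6. Over all 18480 genes that averaged at least 10 counts, 0.687% were at least 2-fold lower in replicate 2, and 0.707% in the other quantification. Intervals lay below 0 for 12.2% of all genes and above 0 for 10.6%. Because the 10 genes were taken for this difference, nothing is read from their share against these. The median ratio of the 10 was -1.10, and that of all genes was -0.003. With scaling by the spike-ins the median of all genes moved to 0.32 and that of the 10 genes to -0.78, and all 10 ratios kept their sign. On that scale 9 of the 10 were lower by more than counting error (0.812% of all genes), since the interval of Rasd2 at -0.07 (-0.16 to 0.01) held 0. At least 2-fold lower were then 4 of the 10 (0.379% of all genes), without Rgs9 at -0.82 and Syndig1l at -0.74.

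Among genes that averaged at least 100 counts, 0.133% were at least 2-fold lower in replicate 2, which is 17 genes. Of these 17, 6 were the striatal genes Drd2, Adora2a, Lrrc10b, Tac1, Rgs9 and Syndig1l. These 6 were among the genes taken for this difference, so nothing is read from their place here. Another 10 had reads shared with other genes (a posterior SD above 5% of the count), and the last was Ptger3, a prostaglandin E receptor gene, with 75 counts in replicate 2 and 156 counts in replicate 1. Over the 10 genes the ratio tended to be lower where the mean TPM was lower (Spearman rho 0.83, Pearson r 0.81 on log2 TPM). These values describe 10 chosen genes measured in the same pair of libraries. The mean TPM includes the replicate 2 level that also enters the ratio, so the measures are coupled by construction.

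For Drd1 the scale mattered. Its counts were 1.66-fold lower in replicate 2, but its TPM was only 1.31-fold lower. TPM divides by an effective length that weights all annotated forms, and this length was 1644 bases in replicate 2 and 2092 bases in replicate 1, since a short noncoding form took a larger share in replicate 2. Adora2a went the same way, 3.50-fold lower by counts and 3.03-fold by TPM. For the other 8 genes the fold differed by less between the scales.

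Indirect pathway genes were set against direct pathway genes within each library. Summed over Drd2, Adora2a and Penk, the indirect pathway had 48.4 TPM in replicate 2 and 95.8 TPM in replicate 1. Summed over Drd1 and Tac1, the direct pathway had 21.9 TPM in replicate 2 and 40.8 TPM in replicate 1. The ratio of indirect over direct was 2.21 in replicate 2 (counting interval 2.00 to 2.44) and 2.35 in replicate 1 (2.18 to 2.52). The direction of this small difference depended on the scale. As CPM per kilobase of the principal transcript the ratio was 3.28 in replicate 2 and 3.13 in replicate 1. From summed counts, in which longer transcripts weigh more, the ratio in replicate 2 was 0.887 times that in replicate 1 (0.788 to 0.998), and 0.902 times in the other quantification (0.804 to 1.01), an interval that holds 1. Penk made up most of the indirect sum in both.

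The receptor ratios were lower in replicate 2 and the peptide ratio was higher. Drd2 over Drd1 was 0.116 in replicate 2 and 0.372 in replicate 1 by TPM, and Adora2a over Drd1 was 0.227 and 0.526. Thus the TPM of Drd1 was above that of either other receptor gene taken singly in both animals, and by a wider margin in replicate 2. Of this Drd1 TPM, the short noncoding form Drd1-203 held 57.2% in replicate 2 and 42.8% in replicate 1. The coding form Drd1-201 was at 5.67 TPM in replicate 2 and 9.93 TPM in replicate 1. Adora2a with all its forms, at 3.01 and 9.13 TPM, was below Drd1-201 by little in replicate 1. Its only complete coding form, Adora2a-201, was at 1.97 TPM in replicate 2 and 7.39 TPM in replicate 1. Penk over Tac1 was 5.05 in replicate 2 and 3.42 in replicate 1, so the enkephalin precursor led by more in replicate 2. Without the peptide genes, Drd2 and Adora2a summed to 0.343 of Drd1 in replicate 2 and 0.898 of Drd1 in replicate 1. This sum depended on the scale. The other quantification gave 0.706 in replicate 2 and 1.48 in replicate 1, and CPM per kilobase of the principal transcript gave 0.574 and 1.32, so whether the sum passed Drd1 in replicate 1 was not settled. Adora2a over Drd1 in the other quantification was 0.558 in replicate 2 and 0.862 in replicate 1. The ratio was lower in replicate 2 on each of these scales.

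How each pair shifted between the animals was measured from counts, where library scaling cancels. Gene length cancels only where the mix of forms is alike in both animals. The effective length of Drd1 was 1644 bases in replicate 2 and 2092 bases in replicate 1. That of Adora2a was 1785 and 2089 bases. The Drd2 to Drd1 count ratio in replicate 2 was 0.395 times that in replicate 1 (0.298 to 0.520), and the Adora2a to Drd1 ratio was 0.471 times (0.368 to 0.599). Against Tac1 the shifts were nearer to 1, at 0.619 for Drd2 (0.450 to 0.848) and 0.738 for Adora2a (0.554 to 0.981). The Penk to Drd1 shift was 0.897, with an interval from 0.781 to 1.03 that holds 1. The Penk to Tac1 ratio was 1.40 times as high in replicate 2 (1.15 to 1.72). So by counts no order of the pathways held across the 6 pairs. Relative to replicate 1, Drd2 and Adora2a were lower by counts than both direct pathway genes, and Tac1 was lower than Penk. Penk and Drd1 could not be told apart by counts. By TPM, however, Penk was 1.83-fold lower in replicate 2 and Drd1 1.31-fold lower, so this depended on the scale. The counts of the other quantification put each of the 6 pairs on the same side of 1. Its TPM did not for Adora2a and Tac1, since Tac1 differed more there. Adora2a was at 7.66 TPM in replicate 2 and 12.6 TPM in replicate 1, and Tac1 at 17.2 and 43.4 TPM.

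**Figure D3:**
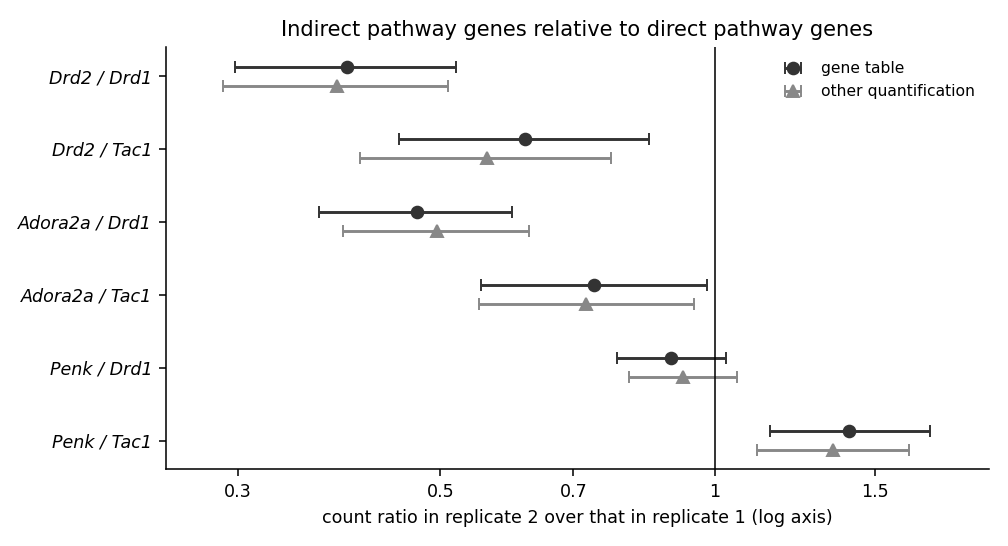
Count ratio of each indirect to each direct pathway gene in replicate 2, divided by the same ratio in replicate 1 (log axis, 95% counting intervals), in the gene tables (circles) and the other quantification (triangles). Drd2 and Adora2a pairs lie below 1, Penk over Drd1 spans 1, and Penk over Tac1 lies above it.

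The transcript forms were not used to choose the genes. The annotation has 34 forms for the 10 genes, and Drd2 and Lrrc10b have 1 each. For 6 of the other 8 genes the same form led in both quantifications by mean share. The leading forms were Penk-201 with 80.6 ± 2.07% of its gene's TPM, Rasd2-202 with 97.1 ± 0.66%, Syndig1l-201 with 88.3 ± 3.98%, Ppp1r1b-201 with 62.4 ± 2.52%, Adora2a-201 with 73.1 ± 11.2% and Rgs9-201 with 53.1 ± 6.19% (n = 2 each). In the other quantification Penk-201 took 100% and Rasd2-202 72.2 ± 0.70%, so these shares differed more between the methods than between the animals.

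For Rgs9, the balance of long-end and short-end forms differed between the animals in the same direction in both quantifications. Rgs9-201 and Rgs9-204 share their first 466 codons and then part: Rgs9-201 is spliced onward to a long end of 675 amino acids, the form known from striatum, and Rgs9-204 reads on to a short end of 484 amino acids, the form known from retina. The sequences around the branch point show the shared codons in lower case and the first 54 bases that differ in capitals, at chr11:109227551-109227604 for the long end and chr11:109235846-109235899 for the short end.
Rgs9-201: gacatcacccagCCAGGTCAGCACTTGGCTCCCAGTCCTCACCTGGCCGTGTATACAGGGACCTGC
Rgs9-204: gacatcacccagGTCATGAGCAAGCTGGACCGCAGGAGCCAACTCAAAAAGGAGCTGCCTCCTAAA

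Forms with the long end, Rgs9-201 and Rgs9-202, had 265 counts in replicate 2 and 751 counts in replicate 1. The short-end form Rgs9-204 had 87.7 counts in replicate 2 and 110 counts in replicate 1. The lower level of Rgs9 in replicate 2 thus lay mainly in the long-end forms. Long over short was 3.09 in replicate 2 and 6.97 in replicate 1 by TPM. The other quantification gave 2.72 in replicate 2 and 5.54 in replicate 1, in the same direction. The long-end form Rgs9-202 taken alone did not keep its direction: its share was 15.1% in replicate 2 and 19.5% in replicate 1, while the other quantification gave 16.9% and 5.17%. The deposited posterior SD, which covers the assignment of reads within a library and not the spread between animals, was 9.79 counts for Rgs9-204 in replicate 2 and 12.3 counts in replicate 1. For Rgs9-201 the posterior mean was 212 counts (SD 22.4) in replicate 2 and 602 counts (SD 34.3) in replicate 1.

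For Drd1, the quantifications disagreed on the form. The coding forms Drd1-201 (446 amino acids) and Drd1-202 (439 amino acids) differ only at their ends, and the expected counts of the gene-table method put all coding counts on Drd1-201, while the other put nearly all on Drd1-202. The division was uncertain within the gene-table method too, whose posterior mean for Drd1-202 was 75.1 counts (SD 47.1) in replicate 2 and 80.5 counts in replicate 1, with an SD nearly as large. Summed over both, coding forms had 416 counts in replicate 2 and 741 counts in replicate 1. The noncoding Drd1-203, of 405 bases, had 49.5 counts in replicate 2 and 49.4 counts in replicate 1, so its counts were close while those of the coding forms differed. Only 52 of its 405 bases are absent from Drd1-201, however, and the other quantification gave it 9.72 counts in replicate 2 and 0 counts in replicate 1, which allows up to 3 counts.

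Drd1-203 begins 878 bases downstream of Drd1-201, inside the intron of the coding forms, and RefSeq also lists a start at each place. The bases before each start are shown for comparison, from the RefSeq promoter table (build GRCm38.p6) on the minus strand, at chr13:54055706-54055908 before the coding forms and chr13:54054781-54055030 before Drd1-203. Capitals mark GGGCGG, the GC box.
Drd1 before the coding forms: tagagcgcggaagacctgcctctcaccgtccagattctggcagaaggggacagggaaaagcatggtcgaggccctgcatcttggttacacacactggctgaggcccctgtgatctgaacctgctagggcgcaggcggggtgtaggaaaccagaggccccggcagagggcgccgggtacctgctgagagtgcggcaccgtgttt
Drd1 before Drd1-203: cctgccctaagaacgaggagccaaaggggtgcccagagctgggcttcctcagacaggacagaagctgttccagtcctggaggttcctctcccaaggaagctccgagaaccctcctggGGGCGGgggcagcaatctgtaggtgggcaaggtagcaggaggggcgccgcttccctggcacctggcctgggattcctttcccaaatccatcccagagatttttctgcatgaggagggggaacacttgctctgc

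The RefSeq promoter table held 6 of the 10 genes with 7 starts. The 250 bases before each start were searched on both strands for the cAMP response element TGACGTCA, the GC box GGGCGG and TATAAA, and no match overlapped another. TGACGTCA was in none of the 7 and in 1.55% of the 32851 promoters of the table. GGGCGG was in 5 of the 7, for Drd1 (before Drd1-203), Drd2, Lrrc10b, Rgs9 and Tac1, and in 32.7% of all. TATAAA was in 1 of the 7, for Rgs9, and in 12.4% of all. These are matches of letters in a short window and say nothing of binding.

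For Tac1, the complete coding forms with the 45-base exon held 56.3% of the gene's TPM in replicate 2 and 56.9% in replicate 1. In the other quantification these were 56.3% and 56.1%. Complete forms with the 54-base neurokinin A exon held 80.2% in replicate 2 and 68.1% in replicate 1, where the other quantification gave 80.8% and 81.9%. For Ppp1r1b, the form of 194 amino acids with the threonine at position 34 that protein kinase A modifies held 64.2% in replicate 2 and 60.6% in replicate 1. Retained-intron forms of Ppp1r1b held 31.4% in each library, and were listed at 0 in the other quantification. Adora2a-201, the only complete coding form of its gene, held 65.2% in replicate 2 and 81.0% in replicate 1, where the other quantification gave 40.4% and 90.8%.

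**Figure D4:**
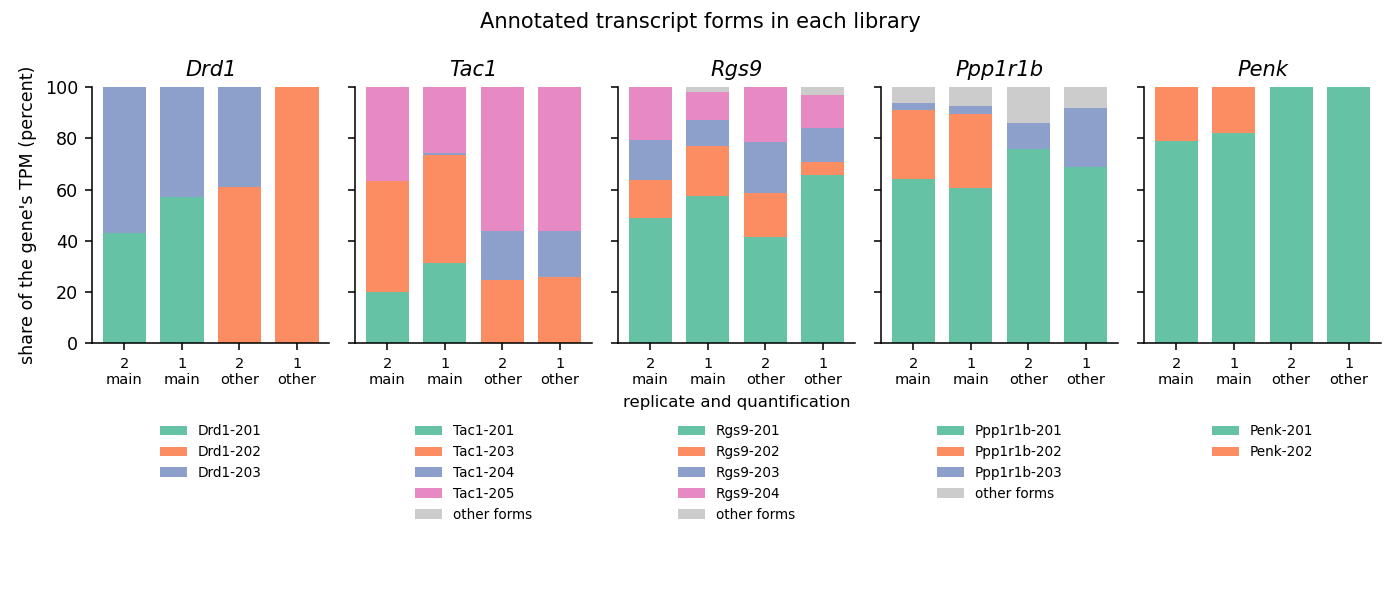
Share of each gene's TPM held by its annotated forms, with replicate 2 left of replicate 1 in the gene-table quantification (main) and then in the other one. The forms of Drd1, Tac1, Ppp1r1b and Penk differ more between quantifications than between animals, while Rgs9-204 is larger in replicate 2 in both.

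Other genes of spiny neurons were compared with the 10, from lists chosen with earlier results of these data known. Counts give genes lower by more than counting error out of those that averaged at least 10 counts. Over all such genes, 12.2% were lower and 10.6% were higher by more than counting error. Directions are relative to the median of all genes. With spike-in scaling, which put that median at 0.32, the medians of 4 of the 17 lists lay below 0: cholinergic neurons at -1.33, midbrain dopamine neurons at -0.09, layer 6 at -0.08 and genes of both kinds of spiny neuron at -0.04. Of 7 other direct pathway neuron genes, 2 were lower, with a median log2 ratio of -0.06. The prodynorphin gene Pdyn was at 13.1 TPM in replicate 2 and 15.1 TPM in replicate 1 (-0.24). The muscarinic M4 receptor gene Chrm4 had 607 counts in replicate 2 and 613 counts in replicate 1 (0.01), and Slc35d3, which is named for its values, was at 22 counts in replicate 2 and 66 counts in replicate 1 (-1.48). Sfxn1, a mitochondrial carrier gene beside Drd1, was at 19.7 TPM in replicate 2 and 20.7 TPM in replicate 1 (-0.06). Of 3 other indirect pathway neuron genes, the receptor gene Gpr6 was lower, with 53 counts in replicate 2 and 129 counts in replicate 1 (-1.23). The transcription factor gene Sp9 was at -0.31 and Plxdc1 at -0.01.

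Of 8 genes of both kinds of spiny neuron, 6 were lower, with a median of -0.36. The transcription factor gene Meis2 was at 48.7 TPM in replicate 2 and 50.7 TPM in replicate 1 (-0.21), and the transcription factor gene Foxp1 was at 58.6 TPM in replicate 2 and 61.3 TPM in replicate 1 (-0.05). The receptor gene Gpr149 had the lowest ratio of this list, at 17 counts in replicate 2 and 66 counts in replicate 1 (-1.81), and is named for its values.

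Markers of other cells moved as well, and their part in the result was not tested. All 4 cholinergic neuron genes were at least 2-fold lower in replicate 2 (0.687% of all genes), with a median of -1.62. Their levels were low and summed to 1.44 TPM in replicate 2 and 3.37 TPM in replicate 1. The choline acetyltransferase gene Chat, outside the naming rule, had 6 counts in replicate 2 and 40 counts in replicate 1. The choline transporter gene Slc5a7 had 39 and 113 counts (interval of the ratio -2.07 to -0.97). The vesicular acetylcholine transporter gene Slc18a3 had 17 and 39 counts (-2.09 to -0.31), and the transcription factor gene Lhx8 had 6 and 26 counts (-3.66 to -0.78). The intervals of Slc5a7, Slc18a3 and Lhx8 thus also held differences smaller than 2-fold. All 8 mature oligodendrocyte genes had intervals below 0, with ratios from -0.33 to -0.25 (a median of 0.04 with spike-in scaling), and summed to 710 TPM in replicate 2 and 875 TPM in replicate 1. Of 5 claustrum and endopiriform genes, 5 were lower (median -0.25, and 0.07 with spike-in scaling), the most for Nr4a2 at -0.64. Of 5 layer 6 genes, 4 were lower (median -0.40), the most for Foxp2 at -0.78, a gene that spiny neurons also express.

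The cortical lists differed less. Of 7 cortical excitatory neuron genes, 2 were lower and 1 was higher (median -0.005), with Slc17a7 at -0.005 and Cux2 at 0.11. Of 8 cortical interneuron genes, 4 were lower (median -0.03), among them Gad1 at -0.15 and Lhx6 at -0.32. Of 5 astrocyte genes 3 were lower and 1 was higher (median -0.04), of 4 microglia genes 0 were beyond counting error either way (median -0.03), and of 4 endothelium genes 1 was lower (median 0.009). Of 4 choroid plexus genes, 2 were higher in replicate 2 (median 0.31), and the list, with Folr1 below the count minimum, summed to 95.3 TPM in replicate 2 and 12.97 TPM in replicate 1. The transthyretin gene Ttr made up most of that sum, at 89.2 TPM in replicate 2 and 8.58 TPM in replicate 1. The log2 ratio of Ttr was 3.37, whereas it was 0.28 for Kl, 0.34 for Clic6 and 0.23 for Kcnj13, and the intervals of Clic6 and Kcnj13 held 0. Of 4 midbrain dopamine neuron genes, which summed to 2.12 TPM in replicate 2 and 3.53 TPM in replicate 1, the transporter genes were near 0 and the enzyme genes were low but detected. The dopamine transporter gene Slc6a3 had 2 counts in replicate 2 and 5 counts in replicate 1. The vesicular monoamine transporter gene Slc18a2 had 0 counts in replicate 2, which allows up to 3, and 6 counts in replicate 1. The tyrosine hydroxylase gene Th had 16 counts in replicate 2 and 25 counts in replicate 1 (-0.56), and the decarboxylase gene Ddc had 58 and 69 counts (-0.22), both with intervals that held 0.

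**Figure D5:**
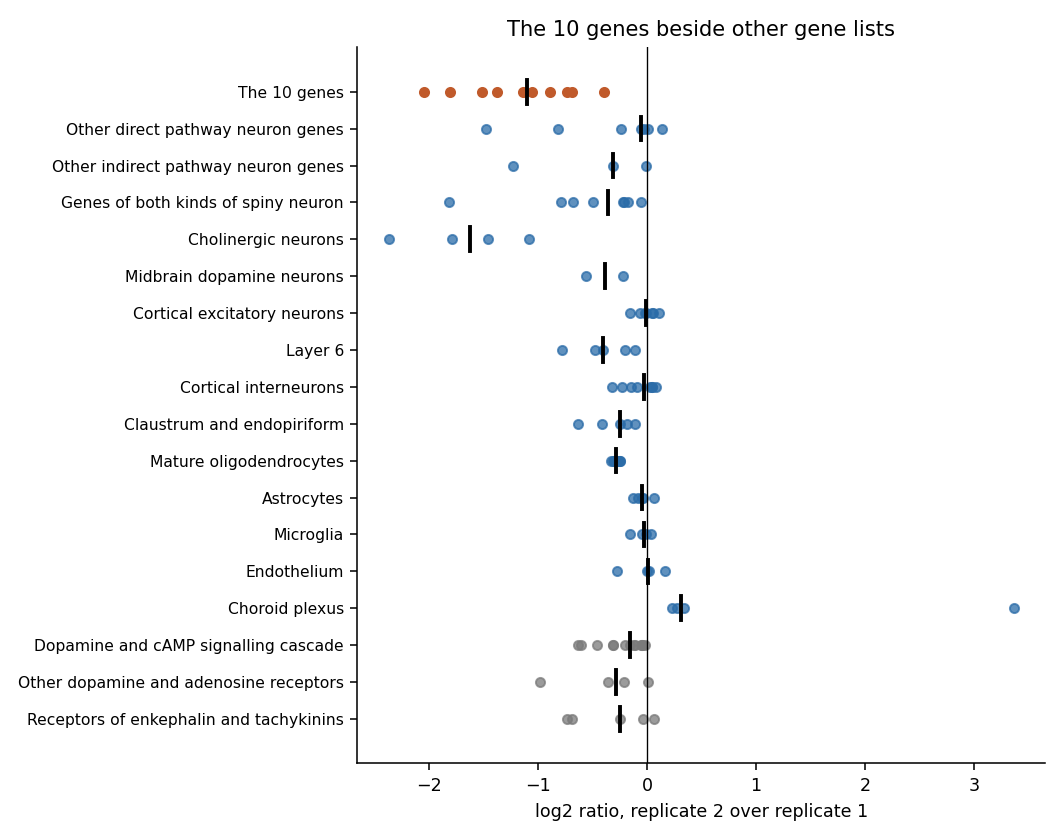
Log2 ratio of replicate 2 over replicate 1 for each gene of each list that averaged at least 10 counts (points) and the median of the list (black bar). The 10 genes and the cholinergic neuron genes lie farthest to the left, at medians of -1.10 and -1.62, and cortical excitatory neuron genes lie around 0.

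Partners in dopamine and cAMP signalling were lower by less. Counting error was exceeded by 10 of the 13 cascade genes, all lower in replicate 2, and the median was -0.15 (0.17 with spike-in scaling). The phosphodiesterase gene Pde10a had the lowest ratio, at 34.5 TPM in replicate 2 and 50.3 TPM in replicate 1 (-0.64). The G protein gene Gng7 was at -0.60, the adenylyl cyclase gene Adcy5 at -0.46 and the olfactory-type G protein gene Gnal at -0.31. These are outside the naming rule and were given, with their values known, because spiny neurons use them after D1 and A2a receptors. Also outside the rule, Pde1b was at -0.31, Prkar2b at -0.20, Ptpn5 at -0.11, Rgs7bp at -0.11 and Cdk5 at -0.02. The broadly expressed genes Prkaca (-0.15), Ppp3ca (-0.06) and Ppp1ca (-0.04) are for kinase A, calcineurin and protein phosphatase 1. They lay closer to 0 than Pde10a, Gng7, Adcy5 and Gnal, but Prkaca lay farther from 0 than Ptpn5, Rgs7bp and Cdk5. Gnb5, which encodes the partner that Rgs9 needs, was at 72.0 TPM in replicate 2 and 73.4 TPM in replicate 1 (-0.05).

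The related receptors were low or level. Of 4 other dopamine and adenosine receptor genes 0 were beyond counting error (median -0.28). The adenosine A1 receptor gene Adora1, widely expressed in cortex, was at 83.2 TPM in replicate 2 and 83.5 TPM in replicate 1, far above Adora2a. The D5 receptor gene Drd5 was at 0.87 and 1.13 TPM. Among receptors for enkephalin and tachykinins, 2 of 5 were lower: the kappa opioid receptor gene Oprk1 (-0.69) and the substance P receptor gene Tacr1 (-0.73). The enkephalin receptor genes Oprd1 (0.06) and Oprm1 (-0.03) were not.

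The genes most like the 10 were sought among 12319 others, by the distance of their ratios in both quantifications from the median of the 10 (-1.10 and -1.13). The nearest 10 in the 2 libraries had ratios from -1.01 to -0.78, and Cbln1, Ptger3, Rxrg, Cd44, Ecel1, Dlk1, Gm45623, Xlr3b and Mme were among them. Cbln1, which encodes a secreted synapse organiser, was closest at 3.27 TPM in replicate 2 and 6.54 TPM in replicate 1 (-0.98). Rxrg, a retinoid receptor gene, was at 2.97 TPM in replicate 2 and 5.70 TPM in replicate 1 (-0.91).

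Genes beside the 10 on the chromosome lay mostly near 0. Of the 20 nearest measured neighbours, 0 were at least 2-fold lower in replicate 2 (0.687% of all genes). By more than counting error, 2 were lower (12.2% of all genes) and 3 were higher (10.6% of all genes). These counts are near the shares over all genes, so nothing is read from them. The median was 0.007. Ratios ran from -0.42 for Tmprss5, beside Drd2, to 0.49 for Ppp1r32, beside Lrrc10b, each with few counts. Of the 10 genes, 3 overlap an annotated gene on the other strand: A830012C17Rik at Penk had 5 counts in replicate 2 and 2 counts in replicate 1, and 1700003D09Rik at Ppp1r1b and Gm48573 at Syndig1l had 0 counts in both. The labels speak of stranded libraries, and whether the counting used strand is not given in the sources used here.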

How the data were processed

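Total RNA-seq tables of 2 cortex libraries (1 group) were used. Per the file headers and the description beside the files, the authors made expected counts, their posterior SDs, TPM, FPKM and the percent of each gene's TPM per transcript from a transcriptome alignment (mm10, GENCODE M21). The estimated counts and TPM of the other quantification, also deposited, derive straight from 1 sequence file (33464140 counts in replicate 2, 33424292 in replicate 1). Names of the aligner and of the quantification software were not given in the sources used here. Spike-in rows (0.345% of counts in replicate 2, 0.428% in replicate 1) and unnamed rows (2.48e-05% and 1.78e-05%) were left out.

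Expected counts were rounded to whole numbers, and genes averaging at least 10 counts were compared. Log2 ratios came from edgeR 4.0.16 in R 4.3.3 (TMM, prior count 2), with exact conditional binomial intervals (Clopper-Pearson, 95%). Reads are not independent molecules, so intervals cover counting error only. The steps were tested on simulated data. Transcript shares were recomputed from TPM. The genes, lists and rules were chosen with earlier results of these data known. Named genes were the 10, the 3 of each list with the highest mean TPM and its most different at 100 counts or more, the 10 most alike, and forms with at least 10% of their gene; others were chosen after their values were seen. Some items that the rule takes are left out of the text. Alternatives were size factors of DESeq2 1.42.0, scaling to spike-ins, other pseudocounts, prior counts and count minimums, FPKM, the other quantification, leaving out each animal, and, chosen after seeing the data, CPM per kilobase.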

Additional observations from a re-analysis of the deposited data

How the results depend on the processing

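No paired analysis was possible because both libraries belong to 1 group. All 10 ratios kept their sign under every scaling, pseudocount and prior count tried and in the other quantification. Of 60 such values, 47 lay within the counting interval of the reported ratio and 13 lay outside it. Spike-in scaling gave 9 of these 13, so it put 9 of the 10 ratios outside the interval of the reported ratio. Spike-in scaling moved the median of the 10 genes to -0.78, left 4 of them at least 2-fold lower against 6 as reported, and put the interval of Rasd2 across 0. The number of genes at least 2-fold lower was 127 as reported, 70 with spike-in scaling, 42 on the log2(TPM + 1) scale, 17 at a mean count of at least 100 and 625 with no minimum, where genes of very few counts enter. The ratio of indirect over direct TPM (2.21 in replicate 2, 2.35 in replicate 1) was 0.116 and 0.372 with Drd2 over Drd1 alone, 0.343 and 0.898 without the peptide genes, and 3.28 and 3.13 as CPM per kilobase, which turned the order of the animals. Without the peptide genes, the other quantification gave 0.706 and 1.48, and CPM per kilobase 0.574 and 1.32, above 1 in replicate 1. CPM per kilobase, and both scales for the receptor sum, were chosen after seeing the data. The mean summed TPM of the 10 genes was 258, and 407 in the other quantification (the cause was not tested). Leaving out an animal gave 186 or 329. Of 8 leading forms, 5 shares moved with the quantification. Low counts of Drd2 and Adora2a in replicate 2 limit their precision.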
